A study of Mus musculus with 8 samples.

Results

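The effect of the Pax1-Enh knockout on female spines was described from 4 of the 8 libraries of a mouse mRNA sequencing study. The female libraries were selected by their labelled sex, and every gene of the count table was kept, so no measured value chose them. They came from whole spine at E18.5 of gestation, shortly before birth, and fell into 2 groups of 2, wild type (WT 1 and WT 2) and labelled Pax1-Enh KO, for knockout (KO 1 and KO 2). The series title describes the deleted DNA as a sex-associated region at Pax1 linked to adolescent idiopathic scoliosis, a sideways and rotated curvature of the spine that progresses mostly in girls. The sources used here do not state the zygosity, the strain, the position of the deletion or whether the libraries of a group came from separate embryos. The other 4 libraries, male WT and male KO, entered only the estimate of the spread between replicates and the comparison of the sexes.

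Pax1 encodes a paired-box transcription factor made in the sclerotome, the part of each somite that forms the vertebrae and intervertebral discs. An enhancer is a stretch of DNA outside the coding sequence that raises transcription of a gene in particular cells. A whole spine at this age holds cartilage, early bone, disc, tendon, back muscle, spinal cord, sensory ganglia, vessels and marrow, and the dissection can carry over tissue that lies against it, such as brown fat, adrenal gland or pancreas. In such bulk RNA, fewer cells of a type and less RNA per cell cannot be told apart.

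Depth and composition differed between the 4 libraries. Total counts were 38862212 and 35181518 in WT 1 and WT 2 and 60557539 and 59834837 in KO 1 and KO 2, so both KO libraries were the deeper ones, and depth and genotype cannot be told apart. A count of 3 corresponded to 0.0427 to 0.0831 CPM, the count scaled to a common library size by the trimmed mean of M-values. Levels below are CPM, given in the order WT 1, WT 2 and then KO 1, KO 2. The median size of the log2 ratio between the libraries of a group was 0.24 in WT and 0.28 in KO. WT 1 and WT 2 were over 8-fold apart in 72 genes (0.398%), 12 of the 56 that WT 1 held higher being pancreatic and 4 of the 16 that WT 2 held higher being fat genes, and KO 1 and KO 2 were in 34 (0.188%).

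Each of the 4 libraries stood apart in a group of genes. WT 1 carried transcripts of the exocrine pancreas: the 23 listed genes summed, in CPM, to 2382 and 11.7 in WT and 6.86 and 6.31 in KO. WT 1 and KO 2 carried adrenal transcripts, with CPM sums over 8 genes of 300.3 and 35.6 in WT and 30.9 and 469 in KO. WT 2 was rich in fat transcripts, with CPM sums over 19 general adipocyte genes of 1210.0 and 6356 in WT and 904 and 583 in KO. KO 1 had the largest share of counts on the 13 protein-coding genes of the mitochondrial genome, 13.2%, against 5.29%, 7.01% and 4.51% in WT 1, WT 2 and KO 2. KO 1 also held reads of Y-linked genes, 97 for Ddx3y and 39 for Eif2s3y, against 0, 4 and 10 and against 1, 0 and 3 in the other female libraries. Ddx3y stood at 1.73 CPM in KO 1 and at 69.8 to 235 CPM in the male libraries, and Xist, the RNA of the silenced X chromosome, was at 295 and 297 CPM in WT and 721 and 385 CPM in KO. The Y-linked levels of KO 1 were far under those of the male libraries, and their part in the results was not tested.

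**Figure D1:**
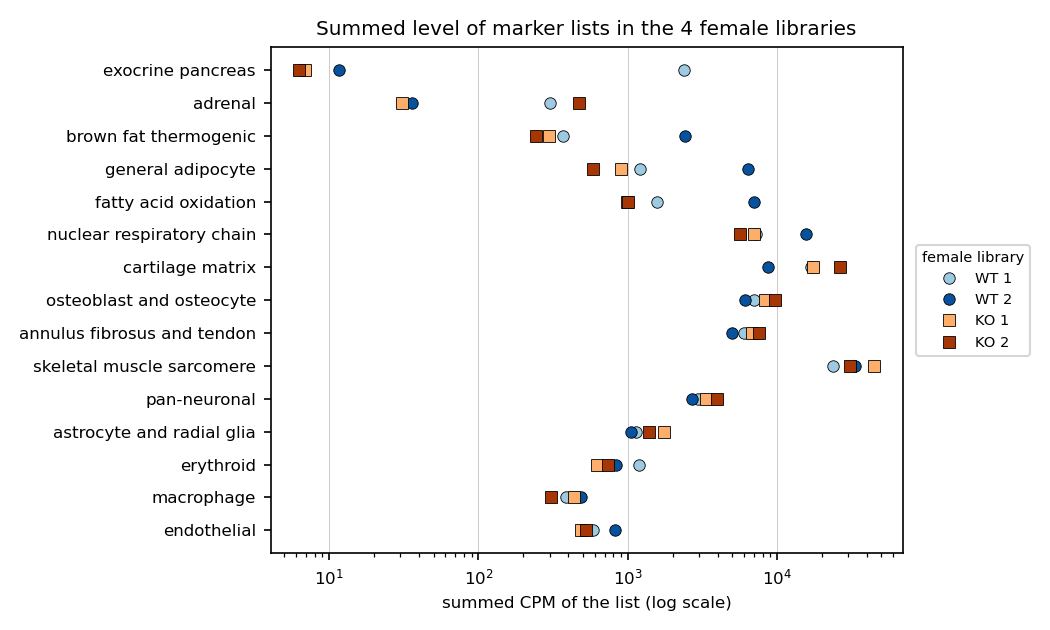
Summed CPM (log axis) of 15 marker lists in each female library, with circles for WT and squares for KO. WT 1 lies far to the right of the others for the exocrine pancreas list, and WT 1 and KO 2 for the adrenal list. WT 2 does so for the brown fat, adipocyte and fatty acid oxidation lists. WT 2 is also highest for the nuclear respiratory chain list, at 15732 against 5624 to 7237 CPM. The erythroid sums run from 624 to 1192 CPM, the macrophage sums from 307 to 487 CPM and the endothelial sums from 483 to 819 CPM.

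Between female KO and WT, large differences were lower values of fat and fatty acid oxidation genes, which WT 2 held at several times the level of WT 1, and lower values of pancreatic enzyme genes, which WT 1 held almost alone. Higher values in both KO libraries were seen for cartilage and bone matrix genes (Prg4, Clec3a, Matn3, Dmp1), giant muscle proteins (Ttn, Neb) and genes of neurons and glia (Aqp4, Scn9a, Luzp2). Of 18104 genes tested with edgeR's quasi-likelihood fit over all 8 libraries, 0 passed an adjusted p of 0.05 (0%), and the smallest adjusted p was 0.532. At an unadjusted p under 0.05 there were 1679 genes (9.27% of those tested), 820 higher in KO (4.53%) and 859 lower (4.74%). limma voom called 0 genes, with a smallest adjusted p of 0.432. DESeq2, run as an alternative, called 144 genes (0.795%), 24 higher (0.133%) and 120 lower (0.663%). The median log2 fold change (KO minus WT) over all tested genes was 0.03, with quartiles of -0.29 and 0.37 and a median standard error (SE) of 0.32. In 4689 genes (25.9%) both KO libraries were above both WT libraries and in 4738 (26.2%) both were below, and 52.6% of genes had a log2 fold change above 0. Since no gene passed the edgeR test, the differences below are given as measured values, and a call always means a DESeq2 call. In counts over a gene list, higher and lower refer to the sign of the log2 fold change. Each such count is to be set beside the shares over all genes. The lists were chosen with earlier results of these data known, and the members of a list share the 4 libraries. No count over a list is therefore a test of it. At an unadjusted p under 0.05 these were 4.53% higher and 4.74% lower, and by DESeq2 0.133% higher and 0.663% lower. Where 4 values follow a list median in brackets, they are the median without WT 1, WT 2, KO 1 and KO 2 in that order.

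The 24 higher and 120 lower calls differed in how close the WT libraries were. WT 1 and WT 2 lay within 2-fold of each other for 23 of the 24 higher calls and for 13 of the 120 lower calls. The share of all tested genes within 2-fold was not counted. Most of them lay within it, since the median size of the log2 ratio of WT 2 to WT 1 was 0.24. A call with a small fold change also needs close libraries, so these counts partly follow from the calling. WT 2 was the higher WT library in 105 of the 120 lower calls and in 6 of the 24 higher calls. With WT 2 left out, the edgeR fold shrank by more than 2-fold for 72 of the 120 lower calls and for 0 of the 24 higher calls. That bound is 1 log2 unit, so a higher call such as Scn9a, with a log2 fold change of 1.04, could hardly shrink that far. A lower call such as Adipoq, at -4.23, had more room, so the 2 counts cannot be set against each other. DESeq2 itself called 366 genes without WT 1, 45 without WT 2, 17 without KO 1 and 25 without KO 2, each of these fits having a lone library in one group. Of the 24 higher calls, 14, 2, 0 and 6 remained in those 4 fits, and of the 120 lower calls 106, 15, 10 and 11 remained. Calls present in all 4 fits numbered 0 among the higher genes and 4 among the lower genes, namely Lgals12, Pnliprp1, mt-Co3 and 1 gene model without a name. Every other call named below was therefore lost without at least 1 female library.

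**Figure D2:**
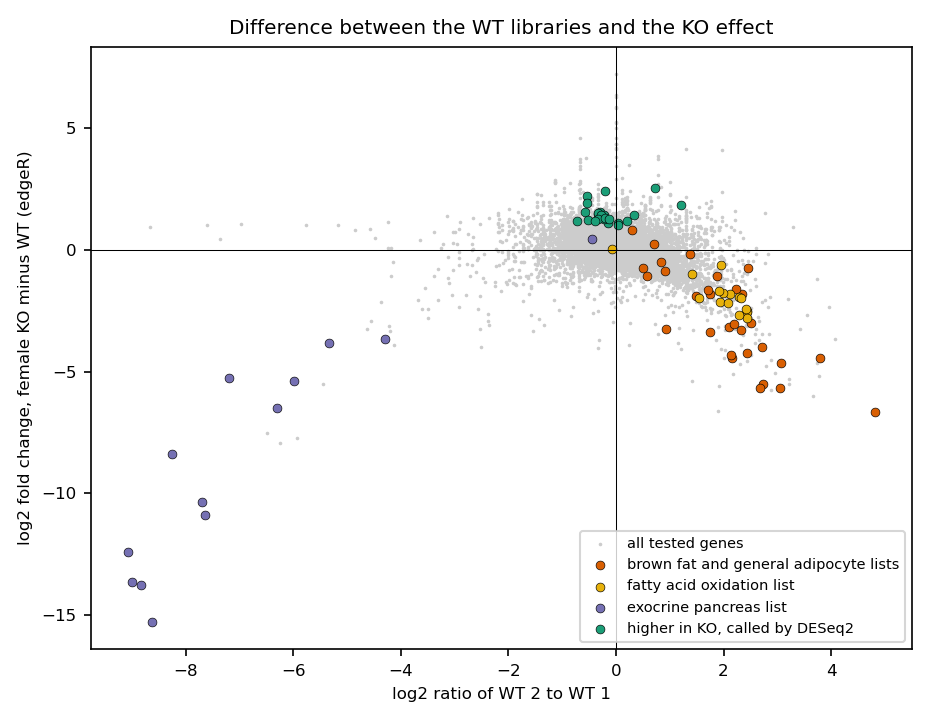
Log2 ratio of WT 2 to WT 1 (horizontal axis) against the log2 fold change of female KO minus WT (vertical axis) for the 18104 tested genes, with 3 gene groups and the 24 higher DESeq2 calls coloured. Fat and fatty acid oxidation genes sit to the lower right, high in WT 2, and pancreatic genes sit to the lower left, high in WT 1. The higher calls sit near the vertical line where the WT libraries are alike, as do most tested genes (median size of the log2 ratio 0.24).

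Pax1 itself, on chromosome 2 at 147361930 to 147375049 (mm10), was read at 27.02 and 18.6 CPM in WT and 30.4 and 19.9 CPM in KO. The ranges overlapped, and the log2 fold change was 0.14 (SE 0.31), with a 95% interval of 0.671-fold to 1.81-fold. Since the position of the deletion is not stated, the level of Pax1 does not check it. Of 14 tested genes of the neighbourhood list, 6 were higher and 8 lower, with a median of -0.02 (0.06, 0.04, 0.04 and 0.04). Foxa2, a forkhead factor of floor plate and notochord, stood at 3.78 and 2.799 CPM in WT and 4.98 and 4.0 CPM in KO, and Nkx2-2, a factor of ventral spinal cord, at 2.002 and 1.14 and 2.05 and 2.66 CPM. Ralgapa2, a subunit of a GTPase-activating complex for Ral proteins, had the smallest p of the list, with 14.8 and 35.4 CPM in WT and 11.1 and 14.8 CPM in KO; WT 2 alone was high and WT 1 lay between the KO libraries. Napb, a vesicle fusion protein, was at 46.95 and 43.1 CPM in WT and 52.7 and 82.7 CPM in KO. The sclerotome and somite regulators split evenly, 7 of 14 tested genes higher and 7 lower, with a median of -0.05 (0.09, -0.17, -0.06 and -0.06). Pax9, the close relative of Pax1 in sclerotome, was at 4.499 and 4.101 CPM in WT and 3.696 and 4.29 CPM in KO. Tcf15, a helix-loop-helix factor of somites, was lower in both KO libraries, 4.84 and 7.15 against 2.71 and 2.71 CPM, a log2 fold change of -1.14 (SE 0.38).

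Fat genes were lower in KO as a group. White and brown adipocytes share a core programme in which the nuclear receptor Pparg, with Cebpa, drives genes for storing and releasing triglyceride, and brown adipocytes add heat production through Ucp1, the uncoupling protein of their mitochondria. All 18 tested genes of the general adipocyte list had a negative log2 fold change, 15 of them with an unadjusted p under 0.05 (4.74% of all genes were lower at that level), and DESeq2 called 8 lower (0.663% of all genes). The list median was -3.27, against 0.03 over all genes. It was -1.74 without WT 2 and -3.93 without WT 1. Of the 13 tested genes of the brown fat list, 11 were lower, 8 at an unadjusted p under 0.05 and 2 by DESeq2, with a median of -1.80 that became -0.67 without WT 2 and -2.46 without WT 1.

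Promoters of 2 of these genes are shown because some nuclear receptors bind the hexamer AGGTCA, alone or in pairs. The search was for single hexamers and not for pairs, so a match is not a site of any given receptor. They run from 250 bases before to 50 bases after the annotated start on the sense strand (RefSeq, GRCm38.p6), with AGGTCA in capitals; no reverse-strand match (TGACCT) occurred in either. In a 300-base window, AGGTCA or TGACCT was found in 16.3% of 32851 promoters and in 6 of 29 promoters (20.7%) of the fat lists. By gene, a match was found for 4900 of all 27025 genes and for 4 of 23 fat list genes with an entry. The matches describe letters only and no binding was measured.
Ucp1, chr8:83290098-83290397, + strand: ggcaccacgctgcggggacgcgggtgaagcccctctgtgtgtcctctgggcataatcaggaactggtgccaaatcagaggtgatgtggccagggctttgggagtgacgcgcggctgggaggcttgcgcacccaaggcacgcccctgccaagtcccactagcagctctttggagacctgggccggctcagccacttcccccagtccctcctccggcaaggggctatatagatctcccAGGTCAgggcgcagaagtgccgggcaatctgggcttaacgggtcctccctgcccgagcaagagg
Pparg, chr6:115362099-115362398, + strand: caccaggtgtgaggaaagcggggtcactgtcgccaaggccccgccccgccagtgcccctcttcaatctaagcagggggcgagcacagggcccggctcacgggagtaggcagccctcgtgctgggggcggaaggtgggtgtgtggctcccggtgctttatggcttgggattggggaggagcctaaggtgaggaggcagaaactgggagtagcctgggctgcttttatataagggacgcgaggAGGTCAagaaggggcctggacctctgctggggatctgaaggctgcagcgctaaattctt

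Of the regulators of the programme, Pparg and Cebpa were low in both KO libraries. Pparg was at 22.8 and 97.98 CPM in WT and 7.23 and 6.39 CPM in KO, a log2 fold change of -3.15 (SE 0.78) and a DESeq2 adjusted p of 8.79e-04. Cebpa, the CCAAT-binding partner of Pparg, stood at 56.9 and 191 CPM in WT and 12.6 and 11.3 CPM in KO, -3.37 (SE 0.73), with a DESeq2 adjusted p of 3.03e-05. For both genes the KO libraries were close to each other, whereas WT 2 was well above WT 1. Without WT 2 the log2 fold change was -1.75 for Pparg and -2.26 for Cebpa, and neither was called by DESeq2 (adjusted p 1 and 0.28). Ebf2, a brown fat lineage factor, was at 31.99 and 47.9 CPM in WT and 17.4 and 20.8 CPM in KO, and Prdm16, a brown fat co-regulator, at 8.01 and 15.1 and 5.59 and 7.12 CPM. Ppargc1a, the coactivator of mitochondrial biogenesis, overlapped between the groups, 15.1 and 24.9 against 24.8 and 22.2 CPM.

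Most lipid droplet and lipase genes followed the same order of libraries, WT 2 highest, then WT 1, then both KO. Lgals12, a galectin of the fat droplet surface, was at 6.23 and 27.4 CPM in WT and 0.893 and 0.797 CPM in KO, -4.31 (SE 0.84), and was the named gene with the smallest DESeq2 adjusted p, 7.91e-07. It was the one fat gene that DESeq2 called in each of the fits without 1 female library, with adjusted p-values of 2.54e-08 to 0.0449. Plin1, which coats the droplet, stood at 29.9 and 192 CPM in WT and 1.43 and 2.93 CPM in KO, and Cidec, which enlarges it, at 26.8 and 222 and 1.93 and 2.93 CPM. Lipe, the hormone-sensitive lipase, was at 63.7 and 284 CPM in WT and 5.73 and 10.02 CPM in KO. DESeq2 called all 3, with adjusted p-values of 0.035, 0.0203 and 0.0184, and called none of them without WT 2, KO 1 or KO 2. Adig, which encodes the small adipocyte protein adipogenin, was at 11.5 and 85.8 CPM in WT and 0.428 and 1.31 CPM in KO, with a DESeq2 adjusted p of 0.0145. Acvr1c, the activin receptor ALK7 of adipocytes, was at 3.87 and 17.7 CPM in WT and 0.9105 and 1.68 CPM in KO, with a DESeq2 adjusted p of 0.00176 that became 1 without WT 2. Other adipocyte genes overlapped between the groups. Cd36, a fatty acid transporter that vessels and muscle also make, was at 158 and 579.5 CPM in WT and 215 and 137 CPM in KO. Lpl, the lipase of capillary walls, was at 79.7 and 439.9 CPM in WT and 175 and 138 CPM in KO, with both KO libraries above WT 1.

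Secreted and signalling genes of fat were lower as well. Adipoq, which encodes the hormone adiponectin, was at 60.5 and 327 CPM in WT and 12.6 and 8.03 CPM in KO, -4.23 (SE 0.91), with a DESeq2 adjusted p of 0.00877. Nrg4, a growth factor released by brown fat, was at 1.94 and 9.89 CPM in WT and 0.339 and 0.427 CPM in KO, with a DESeq2 adjusted p of 1.19e-04. Klb, the co-receptor for the hormone FGF21, was at 3.46 and 18.9 CPM in WT and 0.4999 and 0.441 CPM in KO, with a DESeq2 adjusted p of 4.37e-06. WT 1 was above both KO libraries in each of these 3 genes. Itpka, a kinase of inositol trisphosphate, and Esrp2, a splicing regulator of epithelia, are not on the fat lists but had the same order of libraries: Itpka at 3.38 and 19.3 CPM in WT and 0.286 and 0.826 CPM in KO, and Esrp2 at 2.48 and 12.4 and 0.161 and 0.399 CPM. DESeq2 gave them adjusted p-values of 1.36e-05 and 1.46e-05. Entpd4b, a Golgi nucleotidase, was at 0.5399 and 7.67 CPM in WT and 0.178 and 0.142 CPM in KO; it has a near-identical neighbour, Entpd4, so its reads are uncertain. Without WT 2 the DESeq2 adjusted p was 0.852 for Nrg4, 0.276 for Klb, 0.492 for Itpka, 0.415 for Esrp2 and 1 for Entpd4b.

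Heat-producing genes had wide gaps. Ucp1 was at 31.7 and 889 CPM in WT and 1.45 and 7.62 CPM in KO, -6.66 (SE 1.83), with a DESeq2 adjusted p of 0.0242. Cidea, which marks brown fat droplets, was at 80.0 and 671 CPM in WT and 10.8 and 19.4 CPM in KO, -4.64 (SE 1.18), with a DESeq2 adjusted p of 0.0436. In both genes WT 2 was far above WT 1, and WT 1 in turn exceeded both KO libraries; without WT 2 neither was called (DESeq2 adjusted p 1 and 1). Otop1, a proton channel of brown fat, was at 2.61 and 17.6 CPM in WT and 0.0179 and 0.399 CPM in KO, the last 2 values resting on 1 and 28 reads. Dio2, the deiodinase that activates thyroid hormone, was at 5.11 and 9.199 CPM in WT and 4.95 and 5.18 CPM in KO, with KO 2 above WT 1. Among 11 lipid synthesis genes, 8 were lower, 4 at an unadjusted p under 0.05 (4.74% of all genes), with a median of -0.24 (-0.28, -0.22, -0.07 and -0.66). Thrsp, a thyroid-responsive regulator of lipid synthesis, was at 72.3 and 458 CPM in WT and 18.4 and 22.2 CPM in KO, and Srebf1, the sterol-response factor, at 95.2 and 208 and 48.95 and 61.4 CPM. Fasn and Acaca, the core enzymes of fatty acid synthesis in many tissues, overlapped between the groups, at 165 and 152 against 100.4 and 169 CPM and at 49.2 and 53.6 against 42.1 and 58.7 CPM. Of 15 cholesterol synthesis genes, 7 were higher and 8 lower, with 0 at an unadjusted p under 0.05.

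The enzymes that burn fatty acids in mitochondria were lower with the fat genes. Of 15 tested genes of the fatty acid oxidation list, 14 were lower, 12 at an unadjusted p under 0.05 (4.74% of all genes). DESeq2 called 6 (0.663% of all genes). The median was -1.96, and it was -0.45 without WT 2 and -2.66 without WT 1. Acaa2, which carries out the last step of the oxidation cycle, was at 254 and 1229.8 CPM in WT and 104 and 126 CPM in KO, -2.69 (SE 0.75), with a DESeq2 adjusted p of 0.00509. Eci1, needed for unsaturated fatty acids, was at 73.6 and 398 CPM in WT and 32.2 and 35.4 CPM in KO, with a DESeq2 adjusted p of 0.00268. Cpt2, which brings fatty acids into the matrix, was at 52.3 and 152 CPM in WT and 25.6 and 27.1 CPM in KO, with a DESeq2 adjusted p of 0.0128. In all 3 genes WT 1 was above both KO libraries and WT 2 far above WT 1, and none was called without WT 2, KO 1 or KO 2. Cpt1a, the liver-type entry enzyme of the pathway, was at 33.3 and 31.6 CPM in WT and 27.7 and 38.5 CPM in KO, with overlap. Acadl, which starts the cycle on long chains, was at 177 and 862 CPM in WT and 146 and 129 CPM in KO, and Hadha and Hadhb, the subunits of the trifunctional protein, were at 238 and 906 against 123 and 137 CPM and 111 and 595 against 59.5 and 70.3 CPM.

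Nuclear genes for the respiratory chain were lower in 17 of 18 cases, 8 at an unadjusted p under 0.05 (4.74% of all genes). DESeq2 called 1 (0.663% of all genes), Cox6a1, a subunit of cytochrome oxidase (315 and 776 CPM in WT and 217 and 178 CPM in KO, -1.47 (SE 0.43), DESeq2 adjusted p 0.0436). The median was -1.0 (-1.52, -0.23, -1.13 and -0.96). Ndufs1 of complex I, Sdha of complex II and Cox4i1 of complex IV were at 132 and 289, 336 and 826 and 544 and 1153 CPM in WT and at 177 and 136, 284 and 299 and 404 and 359.5 CPM in KO. WT 2 was the highest library in each of these 3 genes, and WT 1 lay below both KO libraries for Ndufs1 and above both for Sdha and Cox4i1.

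The genes of the mitochondrial genome had another order, with KO 1 highest. mt-Co1, the catalytic subunit of cytochrome oxidase, was at 14418 and 19728 CPM in WT and 43067 and 13750.0 CPM in KO, and mt-Cytb of complex III at 11609 and 16906 and 34992 and 8337 CPM. Both had KO 1 highest and KO 2 lowest of the 4 libraries. Of 13 such genes, 10 were higher and 3 lower, with a median of 0.60 (0.38, 0.95, -0.77 and 1.30). mt-Co3, another subunit of cytochrome oxidase, was lower in both KO libraries, 53.9 and 92.5 CPM in WT and 9.98 and 3.43 CPM in KO, -3.45 (SE 0.67), with a DESeq2 adjusted p of 3.11e-06 that stayed at 0.0183 or less without any 1 female library. Its counts were 2394 and 3339 in WT and 559 and 241 in KO. Reads of the mitochondrial genome can match nuclear copies, so the split of reads among these genes is uncertain. Lars2, the mitochondrial leucyl-tRNA synthetase encoded in the nucleus, was at 1572 and 2966 CPM in WT and 572 and 144 CPM in KO, -2.66 (SE 0.77), with a DESeq2 adjusted p of 0.00626, which became 1 without WT 2 and 0.296 without KO 2. Lars2 was chosen after its values were seen.

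Pancreatic enzyme genes were held by 1 library. Pnliprp1, a lipase-related protein of acinar cells, was at 728 and 1.58 CPM in WT and 0.0179 and 0.0285 CPM in KO, from 32379 and 57 reads in WT and 1 and 2 reads in KO. Ctrb1, which encodes chymotrypsinogen, was at 473 and 0.887 CPM in WT and 0 and 0.0285 CPM in KO, Clps, the cofactor of pancreatic lipase, at 194 and 0.942 and 0.0893 and 0.0142 CPM, and Cela3b, an elastase, at 87.9 and 0.388 and 0.0179 and 0.0427 CPM. WT 1 held nearly all of these transcripts. Only 13 of the 23 listed genes passed the filter on low counts, and those with few or no reads in KO passed it through WT, so their direction was fixed by the filter and no count or median of the list is given. The islet gene Ins2, which encodes insulin, was at 14.1 and 0.194 CPM in WT and 0.0179 and 0.0427 CPM in KO. Without WT 2, edgeR called 33 genes, all of them lower in KO; WT 1 was then alone in its group and was assumed to vary like the other groups. Among the 33 were Ctrb1, Pnliprp1, Clps, Cela3b and Ins2, which WT 1 held nearly alone, so that outcome was fixed by 1 library. The adrenal list set no contrast between genotypes. Cyp11b1, which makes corticosterone, was at 49.1 and 0.0831 CPM in WT and 0.0536 and 95.7 CPM in KO, and Star, the cholesterol carrier of steroid synthesis, at 54.5 and 2.85 and 3.11 and 125 CPM.

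Cartilage matrix genes were higher in KO. Cartilage is built of collagen II fibrils with minor collagens IX and XI, the proteoglycan aggrecan, and linking proteins such as matrilins. Of 20 tested genes, 18 were higher and 2 lower (52.6% of all genes were higher), 5 were higher at an unadjusted p under 0.05 (4.53% of all genes) and DESeq2 called 3 (0.133% of all genes), Prg4, Matn3 and Ucma. The median was 0.71, and it was 0.34 without WT 2 and 1.11 without WT 1, WT 2 being the lowest library for most of the list (summed CPM of 16950.2 and 8646 in WT and 17518 and 26282 in KO). Prg4, the lubricin of joint surfaces, was at 8.21 and 7.54 CPM in WT and 22.2 and 16.4 CPM in KO, 1.29 (SE 0.25), with a DESeq2 adjusted p of 0.00874. Its female WT libraries nearly coincided, and both female KO libraries were well above them. The male WT libraries stood at 27.8 and 20.7 CPM, also above female WT. Matn3, a matrilin of growth cartilage, was at 127 and 77.3 CPM in WT and 226 and 237 CPM in KO, 1.18 (SE 0.29), with a DESeq2 adjusted p of 0.0302. Ucma, a small protein of cartilage matrix, was at 102 and 118 CPM in WT and 318 and 176 CPM in KO, 1.17 (SE 0.31), with a DESeq2 adjusted p of 0.0492. Col2a1, which encodes the main collagen, was at 8737 and 4493 CPM in WT and 7979 and 14337 CPM in KO, and Acan, which encodes aggrecan, at 565 and 281 and 527 and 1094 CPM. In both genes KO 1 lay below WT 1, so the groups overlapped. Col11a1 and Hapln1, the link protein of aggrecan, did not overlap, at 1223 and 531 against 1882 and 2266 CPM and 513 and 287 against 977 and 835 CPM, with log2 fold changes of 1.24 (SE 0.46) and 1.18 (SE 0.39), neither called.

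Clec3a, a lectin of cartilage outside that list, was at 189 and 132 CPM in WT and 381 and 374 CPM in KO, 1.24 (SE 0.29), with a DESeq2 adjusted p of 0.00626. Itgbl1, a secreted protein with integrin-like repeats, was at 12.5 and 10.6 CPM in WT and 31.6 and 24.4 CPM in KO, 1.28 (SE 0.24), the smallest unadjusted p among the named higher genes and a DESeq2 adjusted p of 0.00717. Itga8, an integrin of mesenchyme, stood at 11.8 and 8.89 CPM in WT and 21.7 and 18.02 CPM in KO and was not called. With KO 1 left out, DESeq2 called none of these cartilage genes, the adjusted p-values being 0.397 for Clec3a and 0.571 for Itgbl1. Growth plate hypertrophy genes were higher in 6 of 9 cases, with a median of 0.39 (0.76, 0.14, 0.27 and 0.56). Col10a1, the collagen of hypertrophic cartilage, overlapped, 1521 and 732 against 1663 and 1286 CPM, as did Ihh, the hedgehog signal of the growth plate, 26.8 and 16.02 against 22.4 and 18.6 CPM. Pthlh, the hormone that keeps chondrocytes dividing, was at 2.12 and 1.52 CPM in WT and 3.36 and 3.08 CPM in KO, and Mmp13, the collagenase of late cartilage and bone, at 244 and 167 and 433 and 343 CPM.

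**Figure D3:**
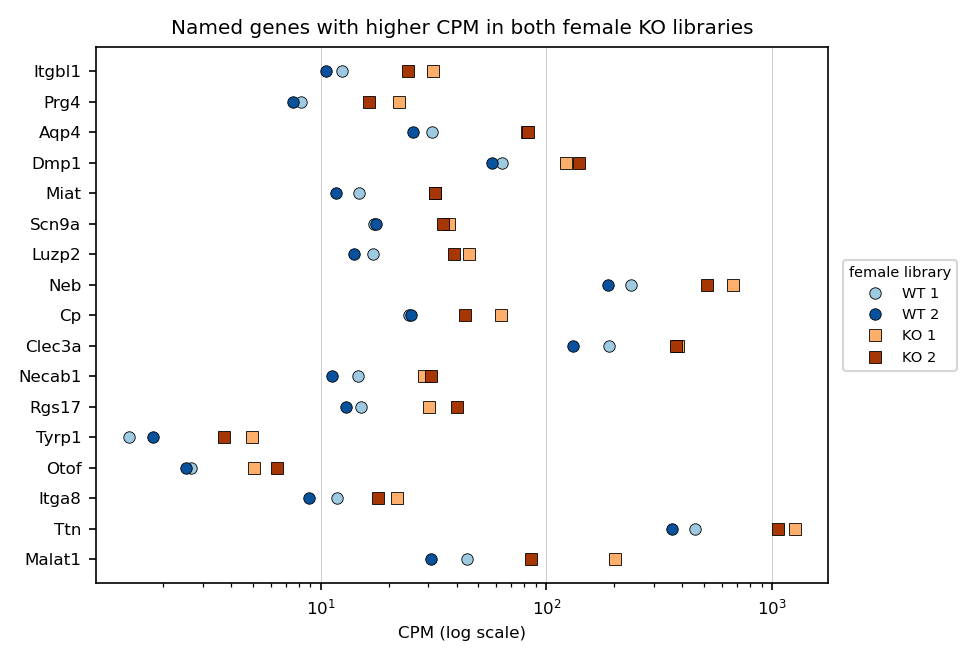
CPM (log axis) of 17 named genes in each female library, circles for WT and squares for KO. In every gene both squares lie to the right of both circles, which was a condition for choosing most of them. The same order was seen in 25.9% of all tested genes. For Prg4, Scn9a, Cp and Otof the 2 circles nearly coincide.

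Bone genes were higher in 16 of 18 cases, with a median of 0.30 (0.46, 0.41, 0.57 and 0.20). Of these, 4 had an unadjusted p under 0.05 (4.53% of all genes) and DESeq2 called 1 (0.133% of all genes). Dmp1, a matrix protein of osteocytes that controls mineral, was at 63.9 and 57.4 CPM in WT and 122 and 139 CPM in KO, 1.11 (SE 0.23), with a DESeq2 adjusted p of 0.00964. Phex, an osteocyte peptidase of phosphate balance, was at 28.3 and 21.97 CPM in WT and 56.5 and 53.1 CPM in KO, 1.12 (SE 0.29), and Mepe, a further osteocyte matrix protein, at 2.52 and 2.63 and 5.999 and 3.96 CPM. In all 3 both KO libraries exceeded both WT libraries. That order was seen in 8 of the 18 listed genes, with the reverse in 1, and in 25.9% of all tested genes. Among early and general osteoblast genes, Sp7, the osteoblast factor, was at 38.8 and 28.4 CPM in WT and 36.2 and 37.4 CPM in KO, and Bglap, which encodes osteocalcin, at 2.16 and 4.38 and 2.45 and 3.62 CPM. Runx2, which directs the osteoblast lineage, was at 29.3 and 22.2 CPM in WT and 38.5 and 39.1 CPM in KO. Osteoclast genes were higher in 11 of 13 cases with a median of 0.14 (0.07, 0.21, 0.24 and 0.03). Acp5 and Ctsk, enzymes of bone resorption, overlapped at 242 and 322 against 364 and 285 CPM and did not overlap at 355 and 470.5 against 536 and 488 CPM. Ostm1, a partner of the osteoclast chloride channel, was at 16.1 and 16.1 CPM in WT and 26.7 and 25.9 CPM in KO, and Atp6v0d2, a proton pump subunit, at 27.7 and 30.1 and 64.1 and 39.4 CPM.

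Disc and tendon genes were higher in 13 of 15 cases, with 0 in either direction at an unadjusted p under 0.05 and a median of 0.52 (0.76, 0.32, 0.40 and 0.46). Scx, the tendon factor, overlapped at 21.5 and 17.4 against 25.3 and 17.1 CPM, while Tnmd, a tendon surface protein, did not, at 90.4 and 63.6 against 183 and 105 CPM. Aspn, a small proteoglycan of disc and cartilage, was at 352 and 278 CPM in WT and 1293 and 415 CPM in KO, KO 1 standing far above KO 2. The notochord and nucleus pulposus list split into 5 higher and 3 lower, with T, the brachyury factor of notochord, at 19.2 and 17.6 CPM in WT and 28.4 and 13.9 CPM in KO and Shh at 0.967 and 1.02 and 1.03 and 1.88 CPM. Of 13 matrix proteases and inhibitors, 9 were higher and 0 had an unadjusted p under 0.05; Adamts5, an aggrecanase, was at 26.1 and 21.1 CPM in WT and 45.6 and 32.4 CPM in KO, and Adamts4 at 10.96 and 10.9 and 6.18 and 7.79 CPM. Genes tied to idiopathic scoliosis in people were higher in 10 of 12 cases, with a median of 0.50 (0.59, 0.18, 0.48 and 0.38). Of these, 3 had an unadjusted p under 0.05 (4.53% of all genes). Adgrg6, an adhesion receptor whose loss in cartilage curves the mouse spine, was at 31.3 and 20.3 CPM in WT and 42.4 and 49.4 CPM in KO, 0.83 (SE 0.25). Chl1, a neural adhesion molecule, was at 59.5 and 43.1 CPM in WT and 96.1 and 124 CPM in KO, 1.10 (SE 0.32). Lbx1, a factor of dorsal spinal cord and migrating muscle precursors, was at 4.18 and 2.99 CPM in WT and 1.84 and 3.103 CPM in KO, and Bnc2 at 11.4 and 11.4 and 10.2 and 12.7 CPM, both with overlap. None of the 12 was called.

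**Figure D4:**
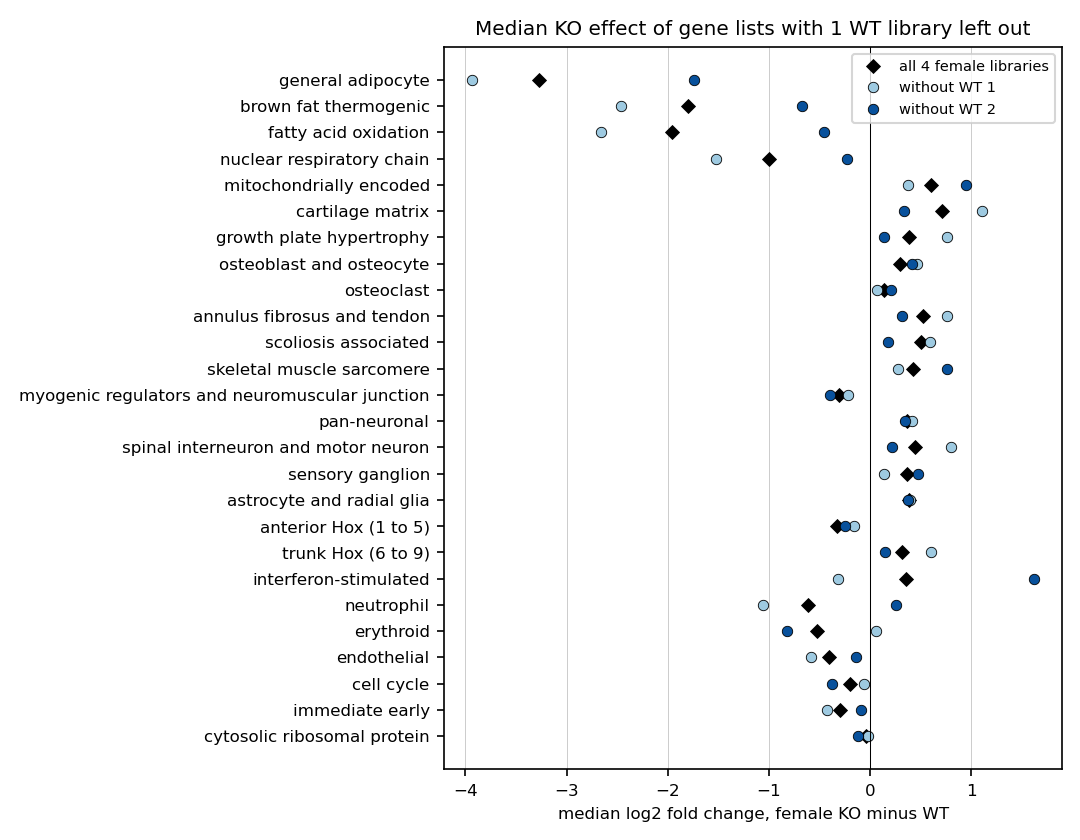
Median log2 fold change of 26 gene lists, female KO minus WT, from all 4 female libraries (diamonds) and with WT 1 or WT 2 left out (circles). The fat, fatty acid oxidation and respiratory chain medians move toward 0 without WT 2, the cartilage, bone, tendon and neural medians stay above 0 either way, and the interferon, neutrophil and erythroid medians cross 0 with 1 of the 2 WT libraries left out. Medians without a KO library are not drawn.

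Muscle genes divided by kind. Of 26 sarcomere genes, 22 were higher, with a median of 0.42 (0.28, 0.76, 0.26 and 0.53). Of these, 4 had an unadjusted p under 0.05 (4.53% of all genes) and DESeq2 called 3 (0.133% of all genes). Ttn, the elastic giant that spans the sarcomere, was at 454 and 360.2 CPM in WT and 1265 and 1063 CPM in KO, 1.52 (SE 0.41), with a DESeq2 adjusted p of 0.00682. Neb, the ruler of the thin filament, was at 238 and 188 CPM in WT and 672 and 514 CPM in KO, 1.48 (SE 0.34), with a DESeq2 adjusted p of 0.00268. In both genes the gap between the groups was larger than the gap within either, but neither was called without WT 2 or KO 1. Myh2, a fast myosin of later fetal muscle, was at 7.02 and 16.2 CPM in WT and 37.99 and 45.97 CPM in KO, 1.85 (SE 0.51), with a DESeq2 adjusted p of 0.0242, and Myh1, a further fast myosin, at 6.097 and 28.4 and 46.4 and 59.9 CPM. Acta1, the skeletal actin, and Ckm, the muscle creatine kinase, overlapped, at 6983 and 11655 against 8552 and 7667 CPM and 1095 and 1463 against 1449 and 1089 CPM. Regulators of muscle formation and of the nerve-muscle junction went the other way in 8 of 12 cases, with a median of -0.31 (-0.22, -0.40, -0.38 and -0.22) and 1 gene at an unadjusted p under 0.05. Pax7, of muscle stem cells, was at 9.25 and 8.34 CPM in WT and 5.37 and 4.73 CPM in KO, Myod1 at 35.2 and 29.7 and 21.98 and 17.5 CPM, and Myog at 123 and 83.7 and 69.9 and 66.6 CPM. Mymx, which fuses myoblasts, was at 18.2 and 13.02 CPM in WT and 8.89 and 8.88 CPM in KO. In these 4 genes both KO libraries were below both WT libraries. That order was seen in 7 of the 12 listed genes, with the reverse in 2, and in 26.2% of all tested genes.

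Neuronal and glial genes were mostly higher. The pan-neuronal list had 15 of 16 genes higher, with a median of 0.37 (0.41, 0.35, 0.54 and 0.16). Of these, 5 had an unadjusted p under 0.05 (4.53% of all genes). Elavl4, an RNA-binding protein of neurons, was at 39.6 and 31.7 CPM in WT and 77.5 and 71.1 CPM in KO, 1.06 (SE 0.27), and Map2, of dendrite microtubules, at 196 and 124 and 317 and 353 CPM. Snap25, of transmitter release, was at 116 and 93.5 CPM in WT and 161 and 188 CPM in KO, and Scn2a, a sodium channel, at 28.2 and 22.2 and 36.3 and 62.99 CPM. Tubb3, the neuronal tubulin, overlapped, 558 and 439.6 against 513 and 519 CPM. None of the 16 was called. Spinal neuron genes were higher in 11 of 14 cases, 3 at an unadjusted p under 0.05 (4.53% of all genes). Their median was 0.44 (0.80, 0.22, 0.78 and 0.10). Slc17a6, the glutamate carrier of excitatory interneurons, was at 51.97 and 44.7 CPM in WT and 85.6 and 101 CPM in KO, and Gad2, which makes GABA, at 8.44 and 5.57 and 12.2 and 18.1 CPM. Chat, which makes acetylcholine in motor neurons, was low and overlapped, 0.675 and 0.887 against 0.518 and 1.54 CPM.

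Sensory ganglion genes were higher in 9 of 13 cases, with a median of 0.37 (0.14, 0.47, 0.49 and 0.03). DESeq2 called 1 (0.133% of all genes). Scn9a, the sodium channel of pain-sensing neurons, was at 17.3 and 17.6 CPM in WT and 37.1 and 34.8 CPM in KO, 1.04 (SE 0.22), with a DESeq2 adjusted p of 0.0265. Its 4 libraries formed 2 tight pairs. Tac1, the precursor of substance P, was at 15.2 and 13.6 CPM in WT and 26.9 and 26.02 CPM in KO, whereas Calca, the precursor of CGRP, overlapped at 18.4 and 31.2 against 29.9 and 34.2 CPM. Astrocyte and radial glia genes were higher in 12 of 13 cases with a median of 0.39 (0.40, 0.38, 0.37 and 0.41). Aqp4, the water channel of astrocyte endfeet, was at 31.2 and 25.6 CPM in WT and 82 and 82.9 CPM in KO, 1.54 (SE 0.32), with a DESeq2 adjusted p of 0.00626. Slc1a2, a glutamate transporter, was at 49.99 and 38.4 CPM in WT and 69.6 and 111 CPM in KO, and Gfap, the glial filament, at 26.3 and 36.7 and 38.5 and 48.2 CPM. Aqp4 had almost the same value in KO 1 and KO 2. Oligodendrocyte and Schwann genes were split, 8 higher and 6 lower; Mbp, a myelin protein, overlapped at 48.5 and 62.6 against 57.3 and 59.4 CPM.

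Miat, a long noncoding RNA of neurons, was at 14.8 and 11.7 CPM in WT and 31.96 and 31.99 CPM in KO, 1.27 (SE 0.27), with a DESeq2 adjusted p of 0.0152. Luzp2, a leucine zipper protein of the central nervous system, was at 17.1 and 14.1 CPM in WT and 45.5 and 39.2 CPM in KO, with a DESeq2 adjusted p of 0.0166. Necab1, a neuronal calcium-binding protein, was at 14.7 and 11.2 CPM in WT and 28.7 and 30.8 CPM in KO, and Rgs17, which shortens G-protein signals, at 15.1 and 12.97 and 30.4 and 40.1 CPM. DESeq2 gave them adjusted p-values of 0.0487 and 0.038. Otof, which triggers vesicle release in hair cells, was at 2.65 and 2.52 CPM in WT and 5.07 and 6.42 CPM in KO and was not called. Cp, the copper-carrying ferroxidase ceruloplasmin, was at 24.6 and 25.1 CPM in WT and 63.2 and 43.6 CPM in KO, and Tyrp1, an enzyme of melanin synthesis, at 1.42 and 1.801 and 4.96 and 3.73 CPM, with DESeq2 adjusted p-values of 0.0436 and 0.0412. Malat1, an abundant nuclear RNA, was at 44.6 and 30.7 CPM in WT and 202 and 85.1 CPM in KO, 1.93 (SE 0.50), with KO 1 far above KO 2 and a DESeq2 adjusted p of 0.0134.

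Transcript length moved with these differences. With the 17225 nuclear genes of known length split into 4 equal bins, from the shortest to the longest, the median log2 fold change was -0.08, -0.04, 0.06 and 0.14. The median log2 ratio of KO 2 to KO 1 ran from -0.07 to 0.19 over the same bins and that of WT 2 to WT 1 from 0.04 to -0.07. The Spearman correlation of length with the fold change across these genes was 0.158, as a description of genes that share the 4 libraries. Ttn and Neb have very long transcripts. The part of length in their difference, and in those of the cartilage and neuronal genes, was not tested.

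Hox genes, which give each level of the body axis its identity, are read here by paralog number from neck to tail. Anterior genes, paralogs 1 to 5, were lower in 10 of 15 cases, with a median of -0.33 (-0.16, -0.25, -0.24 and -0.35). Of these, 3 had an unadjusted p under 0.05 (4.74% of all genes). Hoxa4, of the neck, was at 6.77 and 13.1 CPM in WT and 3.68 and 3.87 CPM in KO, -1.39 (SE 0.34), with a DESeq2 adjusted p of 0.0302. Hoxa5 was at 16.8 and 21.5 CPM in WT and 9.61 and 12.1 CPM in KO, Hoxc5 at 8.32 and 8.01 and 5.36 and 4.63 CPM, and Hoxb5 overlapped at 7.85 and 6.51 against 7.39 and 8.46 CPM. All 12 trunk genes, paralogs 6 to 9, had a positive log2 fold change, 0.06 to 0.73 with a median of 0.32 (0.60, 0.15, 0.27 and 0.37). Of these, 2 had an unadjusted p under 0.05 (4.53% of all genes), Hoxb7 (19.5 and 16.6 against 28.3 and 24.7 CPM) and Hoxd9 (7.63 and 8.98 against 18.1 and 9.37 CPM). Hoxc6, Hoxc8 and Hoxc9, the first of that list, had log2 fold changes of 0.32 (SE 0.24), 0.27 (SE 0.33) and 0.27 (SE 0.24). Among 11 posterior genes, paralogs 10 to 13, 5 were higher and 6 lower. Hoxd10, of the lumbar level, was at 13.5 and 13.8 CPM in WT and 37.2 and 24.6 CPM in KO, 1.18 (SE 0.30), not called. Hoxc10 and Hoxd13 were at 24.9 and 26.6 against 53.02 and 28.2 CPM and 0.742 and 0.139 against 0.196 and 0.0854 CPM. Hoxb13, of the tail end, rested on few reads, 15 and 30 in WT and 2 and 2 in KO, and DESeq2 called it lower (adjusted p 0.0128, log2 fold change -4.09 (SE 0.74)). The sources used here do not say how far along the axis each spine was cut, and the part of this in the Hox values was not tested.

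**Figure D5:**
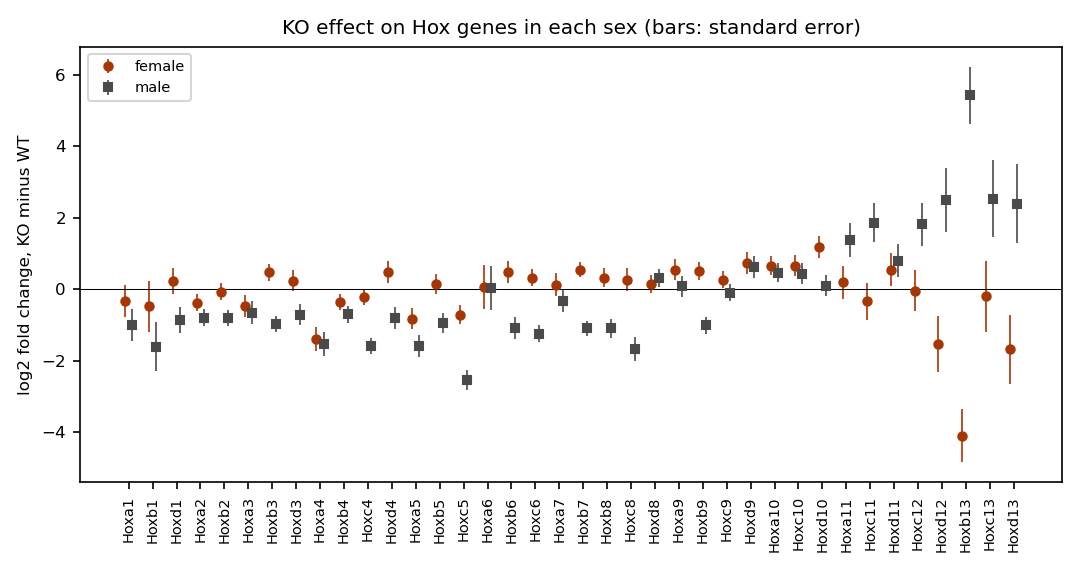
Log2 fold change of KO minus WT for each tested Hox gene, ordered by paralog number, in females (circles) and males (squares), with standard errors. In females the anterior genes lie around or below 0 and the trunk genes above it, while in males the anterior and trunk genes lie mostly below 0 and paralogs 10 to 13 above it, with Hoxb13 at -4.09 in females and 5.42 in males.

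Among blood, vessel and stress genes, the erythroid, neutrophil and interferon medians changed sign with 1 library left out, and the endothelial median did not. Endothelial genes were lower in 11 of 12 cases with a median of -0.41 (-0.58, -0.14, -0.31 and -0.44). Tie1, a receptor of vessel walls, was at 57.4 and 80.8 CPM in WT and 30.3 and 40.98 CPM in KO, Pecam1 at 112 and 163 and 95.2 and 106 CPM, and Cdh5, of endothelial junctions, at 98.7 and 149 and 72.1 and 76.96 CPM. Erythroid genes were lower in 11 of 11 cases, with a median of -0.52 (0.06, -0.82, -0.25 and -0.87); Alas2, the first enzyme of haem synthesis in red cells, was at 102 and 67.7 CPM in WT and 35.7 and 53.7 CPM in KO, and Epor, the erythropoietin receptor, at 1.49 and 2.77 and 0.982 and 1.08 CPM. Neutrophil genes were lower in 8 of 12 cases, with a median of -0.61 (-1.06, 0.26, -0.94 and -0.39); S100a8 was at 52.3 and 149 CPM in WT and 107 and 35.7 CPM in KO, and Ltf, which encodes lactoferrin, at 6.91 and 12.5 and 3.05 and 5.04 CPM. Interferon-stimulated genes were higher in 9 of 11 cases, with a median of 0.36 (-0.32, 1.62, -0.01 and 0.68). Ifit1 was at 0.922 and 2.44 CPM in WT and 7.36 and 2.42 CPM in KO, and Isg15 at 1.87 and 7.12 and 7.07 and 4.44 CPM. Here WT 1 was the low library, and WT 2 overlapped with KO. At an unadjusted p under 0.05, 1 endothelial, 1 erythroid and 4 neutrophil genes were lower (4.74% of all genes). At that level 1 interferon-stimulated gene was higher (4.53% of all genes). No member of these 4 lists was called.

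Cell cycle genes were lower in 13 of 17 cases, with a median of -0.20 (-0.06, -0.38, -0.35 and -0.23). Of these, 3 had an unadjusted p under 0.05 (4.74% of all genes). Mcm5 and Mcm3, subunits of the replication helicase, were at 69.8 and 57.3 against 39.6 and 42.4 CPM and 63.2 and 53.4 against 39.6 and 40.1 CPM, and Aurkb, a kinase of chromosome separation, at 29.6 and 26.5 against 19.7 and 19.4 CPM. Mki67, the marker of dividing cells, was at 132 and 97.7 CPM in WT and 159 and 140.1 CPM in KO, the reverse order. Immediate early genes were lower in 11 of 12 cases with a median of -0.30 (-0.43, -0.09, -0.36 and -0.12) and 0 at an unadjusted p under 0.05, with Fos at 9.11 and 12.9 CPM in WT and 11.8 and 9.32 CPM in KO and Ier2 at 18.9 and 27.02 and 13.9 and 15.4 CPM. Cytosolic ribosomal protein genes were balanced, 12 higher and 13 lower, with a median of -0.04 (-0.02, -0.12, -0.41 and 0.30). Of 14 hypoxia and glycolysis genes 9 were lower, 1 at an unadjusted p under 0.05, Pfkl, a subunit of phosphofructokinase (170.2 and 282 CPM in WT and 111 and 118 CPM in KO).

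Signalling lists held few differences beyond the spread. In the hedgehog pathway 6 of 13 genes were higher and 7 lower. Hhip, a hedgehog-binding antagonist, was at 20.2 and 14.4 CPM in WT and 29.3 and 35.6 CPM in KO, 0.91 (SE 0.33), and Sufu, an inhibitor of GLI factors, at 10.8 and 10.5 and 5.82 and 6.12 CPM, -0.83 (SE 0.33). Ptch1, the receptor and a readout of the pathway, overlapped at 34.8 and 25.99 against 30.4 and 40.9 CPM. Of 17 Wnt targets and antagonists 12 were higher, 3 at an unadjusted p under 0.05 (4.53% of all genes). Wif1 and Dkk1, secreted antagonists, were at 37.01 and 32.5 against 62.9 and 54.7 CPM and 4.95 and 4.68 against 9.27 and 7.02 CPM, and Axin2, a general target, at 14.8 and 14.7 against 13 and 14.8 CPM. Of 21 BMP and TGF-beta genes 10 were higher and 11 lower; Gdf5, the growth factor of forming joints, was lower in both KO libraries, 5.197 and 5.49 against 2.29 and 2.52 CPM, -1.15 (SE 0.31), not called (DESeq2 adjusted p 0.0869). Among 13 steroid and hormone receptors 0 had an unadjusted p under 0.05, with Esr1, an oestrogen receptor, at 1.33 and 2.88 CPM in WT and 1.62 and 2.11 CPM in KO. Of 15 growth factor and imprinted genes 8 were higher; Meg3, a maternally expressed noncoding RNA, was at 523 and 411 CPM in WT and 1089 and 784 CPM in KO, 1.0 (SE 0.38), and H19, a further such RNA, at 15034 and 26327 and 28109 and 15336 CPM.

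Lower calls with WT libraries within 2-fold of each other were 13, among them Fam83a, Irs4, Nptxr and Madcam1. Fam83a was at 2.36 and 2.85 CPM in WT and 0.339 and 0.313 CPM in KO, from 105 and 103 reads against 19 and 22, -2.99 (SE 0.62), with a DESeq2 adjusted p of 0.00182. Irs4, an insulin receptor substrate encoded on the X chromosome, was at 7.78 and 8.87 CPM in WT and 2.32 and 3.57 CPM in KO, -1.50 (SE 0.32), with a DESeq2 adjusted p of 0.0078. Nptxr, a receptor of neuronal pentraxins, was at 3.22 and 3.02 CPM in WT and 0.464 and 0.911 CPM in KO, and Madcam1, an adhesion molecule for homing lymphocytes, at 1.305 and 1.39 and 0.357 and 0.285 CPM, with DESeq2 adjusted p-values of 0.038 and 0.0436. In these 4 genes each KO library was below both WT libraries by a margin larger than the gap within either group. Being called and having close WT libraries were conditions for this set, so that margin was largely fixed by the choice. Without WT 2, the DESeq2 adjusted p of Fam83a was 0.307. Nptxr and Madcam1 were chosen after their values were seen.

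The female effect was set against the male effect, measured in 4 libraries that share none with it. The test of the difference (female effect minus male effect) called 0 of 18104 genes with edgeR (0%), the smallest adjusted p being 0.243, with 3031 at an unadjusted p under 0.05 (16.7%); DESeq2 called 362 (2%), 198 with a positive and 164 with a negative difference. Of the 24 higher female calls, 10 had the same sign in males, and of the 120 lower calls 103 did. The share of all tested genes with the same sign in both sexes was not counted, so these counts have no baseline. These 3 fat genes had negative values in both sexes, Ucp1 -6.66 (SE 1.83) in females and -5.24 (SE 1.71) in males, Adipoq -4.23 (SE 0.91) and -3.06 (SE 0.87), and Lgals12 -4.31 (SE 0.84) and -3.10 (SE 0.81). In males too 1 WT library was far higher: the WT values were 419.6 and 49.5 CPM for Ucp1, 168 and 40.1 CPM for Adipoq and 11.3 and 3.71 CPM for Lgals12. In each higher call named above, both male WT libraries were above both female WT libraries. Neb stood at 609 and 674 CPM and Clec3a at 346 and 310 CPM in male WT. The part of this in the female differences was not tested. Differences between the sexes were not tested for lists. Of the 5 nervous lists, 3 had medians of opposite sign, pan-neuronal (0.37 in females and -0.26 in males), spinal neuron (0.44 and -0.30) and astrocyte (0.39 and -0.33), and the other two had the same sign, sensory ganglion (0.37 and 0.90) and oligodendrocyte and Schwann (0.11 and 0.34). Elavl4 had a difference of 2.15 between the sexes (SE 0.38), and Aqp4 one of 2.14 (SE 0.44). Immediate early genes had a median of -0.30 in females and 1.0 in males, myogenic and junction genes -0.31 and 0.74, and cartilage genes 0.71 and 0.68. The 2 male WT libraries carried 17.5% and 19.6% of their counts on the mitochondrial genome, against 4.34% and 15% in male KO, so the libraries of each sex differed in composition in their own way, and the part of this in the difference between the sexes was not tested.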

How the data were processed

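Counts of mRNA sequencing reads per gene (Entrez identifiers, 27179 genes) were deposited by the authors as raw counts for 8 libraries; per the submitters' processing notes, the tools were HISAT2, featureCounts, FastQC and MultiQC and the build was mm10. The sources used here name neither the strand setting nor the annotation release, so overlapping and antisense genes cannot be told apart. Identifiers were matched to symbols in RefSeq (25275) or GENCODE (18), and 1886 had no name. No column belonged to another series (0 columns).

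Groups came from the sex and genotype in the labels. Nothing says that replicates were separate embryos, so the p-values reflect only how these samples vary, which may be technical. Total counts ran from 35181518 to 67575728, and the limits set by depth cover counting error only. Counts were fitted in R 4.3.3 with edgeR 4.0.16 (quasi-likelihood, TMM scaling, filterByExpr with a minimum count of 10, 4 group means over 8 libraries, 4 residual degrees of freedom), and p-values were adjusted by Benjamini-Hochberg over 18104 genes at 0.05. The SE is the fold change over the root of the F statistic. DESeq2 1.42.0, limma 3.58.1 voom, other scalings and filters, a replicate block and leaving out each library were alternatives; DESeq2 without each library and a crossed block were added after seeing the data. DESeq2 left 351 genes without an adjusted p. The fits were tested on simulated data.

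The comparison, the gene lists and the members of each list were chosen with earlier results of these data known. Named genes were Pax1 and its neighbours, the 15 genes in each direction with the smallest p among those with at least 1 CPM and no overlap, the 10 DESeq2 calls in each direction with the smallest adjusted p, the first 3 genes and up to 4 with the smallest p of each list, and 5 for the difference between the sexes. Acta1, Acvr1c, Cd36, Cidec, Ckm, Cyp11b1, Hadhb, Lpl, Ppargc1a, Prdm16, Sp7 and mt-Cytb fell outside that rule and were chosen after their values were seen.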

Additional observations from a re-analysis of the deposited data

Results flagged for a closer look

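DESeq2's test of the difference between the KO effects in females and males called 362 genes, and these are set out because the difference itself passed a test. The edgeR test of the same difference called 0 genes, with 3031 at an unadjusted p under 0.05, so none of the values here rests on both tools. Hoxb13, of the tail end of the body axis, had a difference (female minus male log2 fold change) of -9.51, with female values of 0.338 and 0.831 (WT) and 0.0357 and 0.0285 (KO) CPM against male values of 0.0247 and 0.0231 (WT) and 1.45 and 0.7802 (KO) CPM. Deptor, an inhibitor of mTOR kinase, had a difference of -2.46 (SE 0.38), Arid5b, a chromatin-binding protein, one of -1.95 (SE 0.33), and Ago2, the slicer of RNA interference, one of -2.08 (SE 0.36). Log2 fold changes in females and males were -0.24 and 2.21 for Deptor, -0.32 and 1.63 for Arid5b and -0.40 and 1.69 for Ago2. For each of them the male effect was the larger part of the difference. Elavl4, an RNA-binding protein of neurons, had a difference of 2.15 (SE 0.38), from 1.06 in females and -1.09 in males. The edgeR adjusted p was 0.243 for each of the 5 genes, and the DESeq2 adjusted p was 2.10e-05, 1.05e-04, 0.00109, 8.98e-04 and 0.00219 in that order.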

How the results depend on the processing

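The count of genes called was 0 for the female KO effect under edgeR with another scaling (RLE), without mitochondrial genes, with no filter, with the 4 female libraries alone, with robust dispersion or with limma voom. It was 144 with DESeq2. Leaving out 1 female library gave 0 to 33 calls with edgeR and 366, 45, 17 and 25 with DESeq2 (without WT 1, WT 2, KO 1 and KO 2 in turn), all 33 being without WT 2. For the difference between the sexes the count was 0 under those edgeR and voom settings (the female libraries alone cannot give it) except 1 gene with no filter, 362 with DESeq2, 0 to 9 with 1 female library left out in edgeR and 203, 48, 23 and 228 in DESeq2. The cause of these changes was not tested. The replicate block gave 0 calls for both effects. The deviations of same-numbered female libraries correlated at -0.144 across genes (males 0.146), so the samples share only a number; crossing the numbers gave 1 call for each effect. Of 171 named genes, 170 kept their sign under the alternatives that used all libraries and 136 under all 12; Bnc2 was at -0.01 with RLE and with DESeq2. Of 54 list medians, 52 and 34 did. The log2 fold changes that changed sign with 1 female library left out ran over these ranges: Acaca from -0.29 to 0.19, Acta1 from -0.53 to 0.21, Axin2 from -0.18 to 0.01, Bglap from -0.54 to 0.48, Bnc2 from -0.16 to 0.16, Cd36 from -1.73 to 0.15, Chat from -0.59 to 0.98, Ckm from -0.23 to 0.21, Col10a1 from -0.05 to 1.0, Cpt1a from -0.23 to 0.25, Cyp11b1 from -8.78 to 9.11, Deptor from -0.58 to 0.03, Esr1 from -0.64 to 0.48, Fasn from -0.66 to 0.09, Fos from -0.29 to 0.21, H19 from -0.43 to 0.53, Hoxc8 from -0.15 to 0.76, Ihh from -0.40 to 0.35, Isg15 from -0.32 to 1.62, Lpl from -1.50 to 0.97, Mbp from -0.11 to 0.26, mt-Co1 from -0.31 to 1.34, mt-Cytb from -0.77 to 1.30, Ndufs1 from -0.89 to 0.24, Pax1 from -0.20 to 0.43, Ppargc1a from -0.09 to 0.63, S100a8 from -1.50 to 0.45, Scx from -0.19 to 0.38, Sp7 from -0.09 to 0.36, Star from -3.21 to 4.47, T from -0.40 to 0.63, Tubb3 from -0.12 to 0.22.
Depth limits the low genes: 3 counts stood for up to 0.0831 CPM.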
